A study of Homo sapiens with 8 samples.

Results

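The comparison described here sets HEL cells with a stable shRNA against PRMT5 beside HEL cells with a scramble shRNA, on 4 of the series' 8 Affymetrix expression arrays. HEL is an established human erythroleukaemia line whose JAK2 kinase is constitutively active. The 4 arrays were chosen by their titles: 2 carry the PRMT5 shRNA and 2 the scramble control. Each PRMT5 shRNA array shares a title suffix with 1 scramble array, which gave 2 pairs, called pair 1 and pair 2. Per the labels, a lentiviral pLKO vector with a single shRNA made the stable knockdown line, all cells grew in RPMI medium with fetal bovine serum, and no drug is given for these 4 arrays. The time after transduction, the selection and the number of clones are not given in the sources used here. The other 4 arrays are HEL cells with the kinase inhibitor CEP701 (0.5 µM, 16 h) or its vehicle DMSO, and entered the fit only to estimate the spread between arrays. Nothing in the labels says that replicates were separate cultures. For each gene the p-value of the main fit rests partly on the disagreement between its 2 pair differences and its spread between CEP701 or DMSO replicates. Either may be technical. The rest is a spread shared by genes of similar signal, estimated from all genes tested. The shared part counts for 7.69 prior degrees of freedom, against 3 residual ones from the gene itself.

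PRMT5 is the main enzyme that places symmetric dimethyl marks on arginines of histones, of the Sm proteins of spliceosomal snRNPs and of many other proteins. It works as a complex with WDR77, and the adaptors CLNS1A, RIOK1 and COPRS bring it to different substrates. In erythroleukaemia cells with mutant JAK2 it is known as a substrate of that kinase. Several groups of transcripts below belong to the response to low oxygen. In that response the factor HIF1A escapes hydroxylation by the EGLN enzymes and destruction through VHL, pairs with ARNT, and switches on genes of glycolysis, collagen modification, mitophagy and blood vessel growth.

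Expression was read as MAS5 signal, a linear intensity with 1 value per probe set and array. Of the 54675 probe sets, 41097 name a single gene, and 12987 genes had a signal above 60 on at least 2 of the 4 arrays. Pearson's r across these genes on the log2 scale was 0.974 and 0.970 within the pairs, 0.964 between the scramble arrays, 0.963 between the PRMT5 shRNA arrays and 0.807 to 0.854 between these arrays and the CEP701 and DMSO arrays. Of 10 markers of HEL, 8 have a probe set of their own, and all 8 exceeded 60 on all 4 arrays, among them GATA1, TAL1, KLF1 and GFI1B. So did 11306 of the 19775 genes with a single-gene probe set, so this count does not identify the line. The 4 arrays also held myeloid transcripts that were near background on the CEP701 and DMSO arrays, although all carry the HEL label: MPO, a neutrophil granule peroxidase, ranged from 10913 to 20593 here and from 4.13 to 63.5 there. Other genes separated the same arrays. MTAP, of methionine salvage, was at 374 to 604 here and 1.54 to 15.8 there, and the epithelial genes EPCAM and KRT19 were at 484 to 2753 and 525 to 2517 here and at most 49.8 and 4.52 there. JAK2 was lower here, at 424 to 561 against 1669.6 to 2681, and so was CA1, a red cell carbonic anhydrase, at 163 to 848 against 22543 to 25576. Whether all arrays come from 1 HEL stock is not given in the sources used here, and the spread behind each p-value comes partly from the other arrays. RNA integrity was read from control probe sets at both ends of a transcript, and for actin the 5' signal over the 3' signal was 0.141 and 0.179 on the scramble arrays and 0.187 and 0.335 on the PRMT5 shRNA arrays. The GAPDH ratio was 0.846 and 0.883 with scramble and 0.729 and 0.778 with PRMT5 shRNA. Both ratios thus separated the groups, and their part in the results was not tested. Precision is limited throughout by having 2 arrays in each group.

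PRMT5 itself was lower with its shRNA in both pairs at all 3 of its probe sets. The brightest read 1794 and 984 on the scramble arrays and 664 and 315 on the PRMT5 shRNA arrays, pair 1 first, which left 37.0% and 32.0% of the paired scramble signal. The groups did not overlap there, although the scramble signal of pair 2 was well below that of pair 1. The second probe set read 1350.2 and 628 with scramble and 474 and 350.3 with PRMT5 shRNA, or 35.1% and 55.8% of the paired scramble. At the third the signals were 989 and 735 against 500.3 and 289, or 50.6% and 39.4%. The residual signal thus differed between probe sets as well as between pairs. The log2 difference at the brightest probe set, on the scale of log2(signal + 10), was -1.52 ± 0.12 (SE; limma with the pair as a block, Benjamini-Hochberg adjusted p = 9.28e-05). Without the block it missed the threshold of 0.05 (adjusted p = 0.211).

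**Figure D1:**
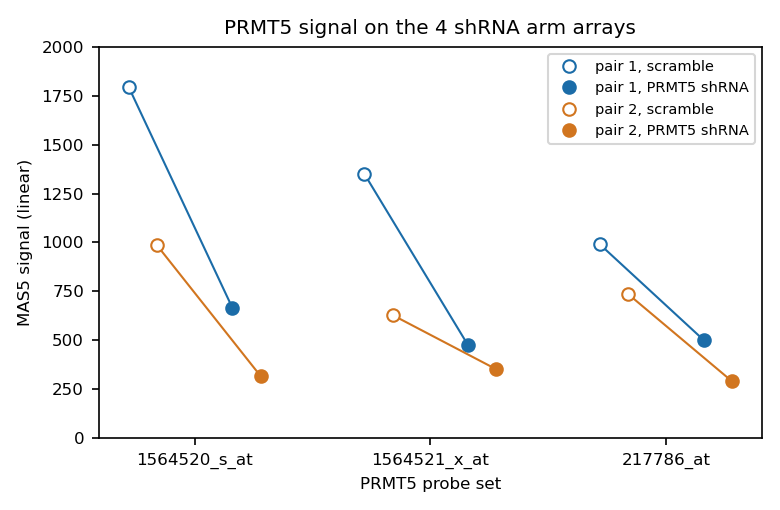
MAS5 signal (linear axis) of the 3 PRMT5 probe sets on each of the 4 arrays, open circles for scramble and filled circles for PRMT5 shRNA, with a line joining the arrays of a pair. Every line falls from scramble to PRMT5 shRNA, and pair 2 starts lower than pair 1 at each probe set.

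Transcripts of the PRMT5 partners were not called in either direction. WDR77, the constant subunit of the complex, read 939.8 and 627 with scramble and 906 and 825 with PRMT5 shRNA, a log2 difference of 0.17 (adjusted p = 0.677). COPRS, which tethers PRMT5 to histones, was at 0.34, RIOK1, which competes with CLNS1A for the complex, at 0.12 and CLNS1A, the adaptor for Sm proteins, at 0.06 (adjusted p = 0.216 to 0.867). None of the 9 other arginine methyltransferase genes measured was called, and the lowest unadjusted p among them belonged to PRMT3, which methylates a ribosomal protein, at 0.37, and to NDUFAF7, which methylates a subunit of respiratory complex I, at -0.31 (adjusted p = 0.143 and 0.391).

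Across all genes, falls outnumbered rises. A gene was called when its Benjamini-Hochberg adjusted p over all 12987 genes was under 0.05. In all 250 genes were called, 1.93% of those tested, of which 45 rose (0.347%) and 205 fell (1.58%). At least 2-fold changes made up 7 of the rises and 93 of the falls. The scramble and PRMT5 shRNA signals did not overlap in 30 of the called rises and 177 of the called falls, against 29.9% of all genes tested. Without the pair block 21 genes were called (0.162%), 1 higher and 20 lower, and all 21 were also called with it. The 20 were AK4, BNIP3, P4HA1, PLOD2, ALDOC, GPI, FAM162A, HILPDA, IL1B, PTX3, SPP1, HAMP, RGS1, FGF11, TMPRSS3, SMIM24, WDR54, SNX17, WASF2 and ADD1.

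More genes were over 2-fold lower in both pairs than over 2-fold higher. The differences of pair 1 and pair 2 correlated weakly across genes (Pearson's r = 0.246, Spearman's rho = 0.262), which are not independent replicates, and 60.4% of genes had the same sign in both. Over 2-fold in both pairs were 132 genes lower (1.02%) and 45 higher (0.347%), of which 65 and 5 were also called. Most of the higher ones were dim: 9 of the 45 reached a signal of 200 on any of the 4 arrays, against 98 of the 132 lower ones. Over 2-fold in opposite directions were 73 genes, and 4 of them reached 200, namely IKBKB-DT, LINC01210, LOC101927723 and SFTPC, named because of that count.

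**Figure D2:**
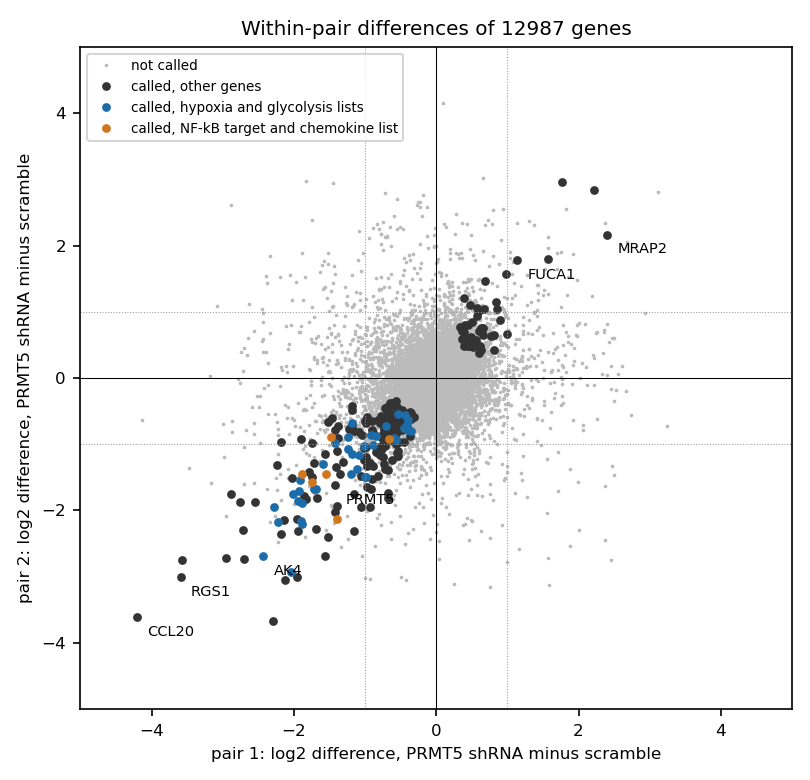
Log2 difference, PRMT5 shRNA minus scramble, in pair 1 (horizontal axis) against pair 2 (vertical axis) for 12987 genes, on the scale of log2(signal + 10), with dotted lines at a 2-fold change. The 250 called genes lie in the lower left and upper right, and the called hypoxia and glycolysis genes and NF-kB targets lie in the lower left.

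Genes that low oxygen induces made up the largest described group among the falls. Of the 72 measured genes in the lists of HIF factors and oxygen sensors, glycolysis, and other hypoxia targets, 38 fell and 0 rose. Among all genes 1.58% fell. The 38 were 18.5% of all 205 called falls. All 38 had scramble signals that did not overlap those with PRMT5 shRNA, as did 177 of the 205 called falls. Among all genes 16.3% had groups that did not overlap with scramble higher. In 62 of the 72 the signal was lower in both pairs, against 30.2% of all genes tested.

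Outside glycolysis, 21 of 36 measured hypoxia targets fell and none rose, beside 1.58% of all genes. The list's median log2 difference was -1.21, with -1.02 in pair 1 and -1.26 in pair 2, while the median of all genes was 0.00. In 32 of the 36 the groups did not overlap, with the scramble arrays higher, which held for 16.3% of all genes. Without the pair block 5 of the 36 were called, namely AK4, BNIP3, P4HA1, PLOD2 and FAM162A.

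AK4, an adenylate kinase of the mitochondrial matrix, had the lowest adjusted p of all genes. Its signal was 3475 and 5075 on the scramble arrays and 635 and 779.7 on the PRMT5 shRNA arrays, so the higher array with PRMT5 shRNA stayed far below the lower scramble array. The log2 difference was -2.56 ± 0.11 (SE; adjusted p = 1.97e-06), a 5.90-fold fall, and without the block the adjusted p was 3.52e-03. The other 3 AK4 probe sets were lower in both pairs too, with pair differences of -2.69 to -1.29.

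BNIP3 and BNIP3L are mitochondrial receptors that hand mitochondria to autophagy. BNIP3 read 8217 and 11079 with scramble against 1689 and 2871 with PRMT5 shRNA, a difference of -2.11 ± 0.11 (SE; adjusted p = 8.80e-06). BNIP3L read 15859.8 and 22621 against 7807 and 11100.5, and its difference of -1.02 ± 0.09 (SE) was nearly the same in each pair (adjusted p = 1.78e-04; 0.144 without the block). In both genes pair 2 was brighter than pair 1 in both groups, and the groups did not overlap.

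P4HA1 and PLOD2 are hydroxylases that modify prolines and lysines of collagen. P4HA1 read 4787 and 6772 with scramble and 1282 and 1818 with PRMT5 shRNA, a 3.71-fold fall in each pair (log2 -1.89 ± 0.11, SE; adjusted p = 1.40e-05). PLOD2 read 1788 and 2385 against 549 and 741 (-1.68 ± 0.11, SE; adjusted p = 3.92e-05). For both genes the fall was nearly the same in each pair. P4HA2, the close relative of P4HA1, read 569 and 919.6 against 113 and 156, and its difference of -2.36 ± 0.53 (SE) missed the threshold (adjusted p = 0.0519). It is named for that contrast, after its values were seen.

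DDIT4, a stress-induced inhibitor of mTORC1, read 7926 and 13180.4 with scramble and 2406 and 4136 with PRMT5 shRNA. Its difference was -1.69 ± 0.10 (SE; adjusted p = 1.40e-05), and 0.0719 without the block. MIR210HG, the host transcript of the hypoxia-induced miR-210, read 247 and 969 against 52.4 and 119, so the scramble arrays of the pairs differed almost as much as the groups did (-2.48 ± 0.51, SE; adjusted p = 0.0353). MXI1, which opposes MYC, fell by 1.12 on the log2 scale, and VLDLR, a lipoprotein receptor, fell by 2.20.

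The promoters of 4 of these genes are shown because their falls had the lowest unadjusted p among hypoxia and glycolysis genes with a promoter entry, and HIF is known to bind the motif searched. Each line gives the 250 bases before the RefSeq start of the gene (assembly GRCh38.p14), 5′ to 3′ on the gene's strand. Capitals mark ACGTG or GCGTG on either strand, where overlapping matches run together, so that CACGTG counts as a match on each strand. AK4 lies at chr1:65147302-65147551 (+), BNIP3 at chr10:131981924-131982173 (-), P4HA1 at chr10:73096867-73097116 (-) and DDIT4 at chr10:72273674-72273923 (+).
AK4: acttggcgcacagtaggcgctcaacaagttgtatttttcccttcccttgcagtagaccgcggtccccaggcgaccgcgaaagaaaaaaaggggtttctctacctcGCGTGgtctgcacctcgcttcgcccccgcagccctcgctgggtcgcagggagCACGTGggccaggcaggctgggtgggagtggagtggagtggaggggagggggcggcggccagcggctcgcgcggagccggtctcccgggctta
BNIP3: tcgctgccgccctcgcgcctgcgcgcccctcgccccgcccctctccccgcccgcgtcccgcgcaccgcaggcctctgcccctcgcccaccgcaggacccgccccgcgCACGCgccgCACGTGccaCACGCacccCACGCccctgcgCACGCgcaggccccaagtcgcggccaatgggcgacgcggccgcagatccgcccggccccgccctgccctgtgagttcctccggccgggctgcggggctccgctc
P4HA1: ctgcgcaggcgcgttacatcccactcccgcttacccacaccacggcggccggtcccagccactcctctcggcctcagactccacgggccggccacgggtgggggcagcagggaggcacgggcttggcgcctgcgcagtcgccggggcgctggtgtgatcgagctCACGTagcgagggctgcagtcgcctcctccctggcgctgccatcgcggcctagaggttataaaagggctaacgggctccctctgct
DDIT4: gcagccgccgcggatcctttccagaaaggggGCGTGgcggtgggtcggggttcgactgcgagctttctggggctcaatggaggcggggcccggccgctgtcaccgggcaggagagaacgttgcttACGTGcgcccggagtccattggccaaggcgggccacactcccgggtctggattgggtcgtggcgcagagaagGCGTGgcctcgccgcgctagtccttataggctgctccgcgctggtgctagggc
BNIP3 holds 6 matches in a stretch from 143 to 104 bases before its start, AK4 and DDIT4 hold 3 each, and P4HA1 holds 1, at 86 bases before the start. At least 1 match was found in 43.2% of all 35116 promoter windows of this length and in 56.1% of the 10519 belonging to genes tested here. Among called members of the hypoxia and glycolysis lists 24 of 33 windows had one (72.7%), and among the members that were not called 23 of 31 (74.2%), which is nearly the same share. ACGTG alone was in 57.6% of the called, 45.2% of the uncalled and 23.2% of all tested genes' windows. Among all genes called lower, 51.7% of 172 windows held either motif and 27.9% held ACGTG. A match is a description of these letters, not a binding site or a cause.

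Glycolysis genes fell less steeply but broadly. Of 27 measured, 15 fell and none rose, with a median log2 difference of -0.63 (-0.56 in pair 1 and -0.75 in pair 2), and in 22 the groups did not overlap with scramble higher. Over all genes 1.58% fell and 16.3% had groups apart in that direction. Without the block 2 were called, GPI and ALDOC. The summed signal of the 27 was 317195 and 354658 with scramble and 235513 and 234501 with PRMT5 shRNA.

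ALDOC, an aldolase, showed the largest fall of the glycolysis list, from 2397 and 3917 with scramble to 640.1 and 838 with PRMT5 shRNA (log2 -2.05 ± 0.16, SE; adjusted p = 7.46e-05). GPI, which converts glucose 6-phosphate to fructose 6-phosphate, read 6952 and 8677 against 3029 and 3169 (-1.32 ± 0.10, SE; adjusted p = 7.46e-05). In neither gene did the groups overlap. PDK1, which restrains entry of pyruvate into the TCA cycle, read 3386 and 5117 against 1118 and 2065, a difference of -1.45 (adjusted p = 7.46e-05). HK2, the inducible hexokinase, read 5080.4 and 6613 against 1881 and 3335 (-1.21; adjusted p = 5.36e-04), but 1 of its other, dim probe sets was higher in both pairs, at 0.60 and 0.98. The glucose transporter SLC2A3 read 17827 and 31400.0 against 9580.1 and 15547 (-0.95; adjusted p = 1.35e-03). Of these 3 genes none passed without the block.

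Not all members of the glycolysis list were lower. In 2 of the 27 the signal was higher in both pairs, beside 30.2% of all genes. In 1 the groups did not overlap with PRMT5 shRNA higher, beside 13.6% of all genes. The highest log2 difference of the list was 0.99, and it was not called. Other members were close to 0. HK1, the housekeeping hexokinase, was at -0.14 and LDHB, the lactate dehydrogenase of oxidative tissues, at 0.08, while its counterpart LDHA fell by 0.72 on the log2 scale (adjusted p = 4.60e-03), from 44949 and 43778 to 27598 and 26389.5. GAPDH read 46195 and 47206 against 43451 and 42378, a difference of -0.12 (adjusted p = 0.661). These uncalled genes were picked after their values were seen. None of 37 respiratory chain genes was called (median 0.12), and none of 17 TCA cycle genes (median 0.12). Higher in both pairs were 26 of the 37 and 10 of the 17, and lower in both were 1 and 3. Among all genes the share was 30.2% each way.

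**Figure D3:**
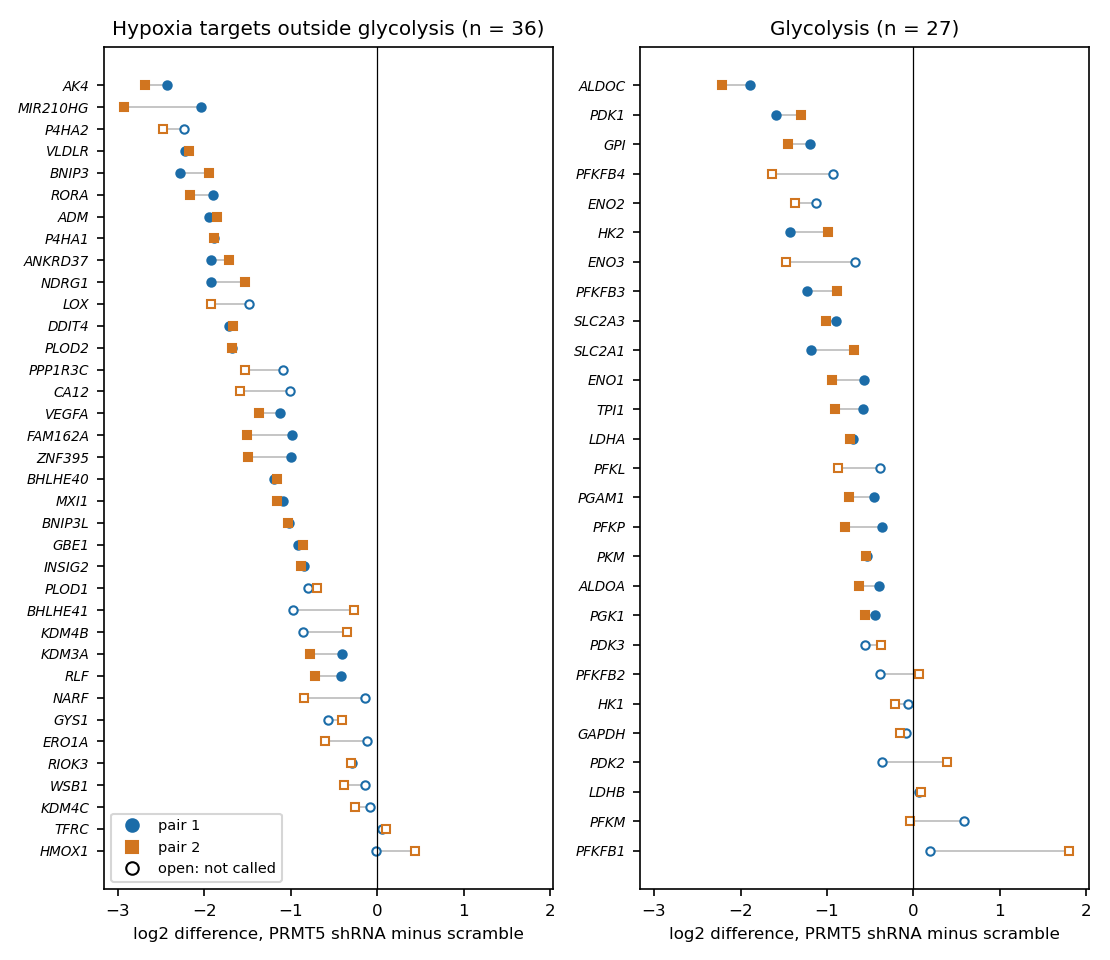
Log2 difference, PRMT5 shRNA minus scramble, of each measured hypoxia target outside glycolysis (left, 36 genes) and each glycolysis gene (right, 27 genes), circles for pair 1 and squares for pair 2, filled where the gene was called. The called genes lie left of 0 in both pairs, 21 on the left and 15 on the right, and GAPDH, LDHB and HK1 lie close to 0.

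Among the HIF factors and oxygen sensors, 2 of 9 fell, beside 1.58% of all genes, and both were prolyl hydroxylases. EGLN1, the main sensor that marks HIF1A for destruction, read 2834 and 4009 with scramble and 1193 and 1899 with PRMT5 shRNA (log2 -1.16 ± 0.14, SE; adjusted p = 1.53e-03). EGLN3, which HIF itself induces, read 513 and 978 against 119 and 283 (-1.89 ± 0.33, SE; adjusted p = 0.0178). Neither passed without the block (adjusted p = 0.176 and 0.292). The transcript of HIF1A did not separate the groups, at 11478 and 10376 against 10003 and 11273 (-0.04; adjusted p = 0.930), and VHL was at -0.06 and ARNT at -0.19. Protein levels and oxygen were not measured.

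Levels of these genes also differed between the pairs. Of the 38 called members, 33 were brighter on scramble replicate 2 than on scramble replicate 1 and 31 were brighter on PRMT5 shRNA replicate 2 than on replicate 1. The summed signal of the 36 hypoxia targets was 158150 and 190850 with scramble and 103261 and 108335 with PRMT5 shRNA. What differed between the pairs is not given in the sources used here. In pair 2 alone the median log2 difference was -1.26 for the 36 targets and -0.75 for the 27 glycolysis genes. In pair 1 alone the medians were -1.02 and -0.56. A single pair holds 1 array per group, so calls from it are not given.

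Inflammatory cytokines and chemokines formed the next group. Of 23 measured NF-kB targets and chemokines, 6 fell and none rose, with a median log2 difference of -0.69 (-0.76 in pair 1 and -0.52 in pair 2). The share called lower among all genes was 1.58%. In 19 the signal was lower in both pairs, beside 30.2% of all genes, and in 17 the groups did not overlap with scramble higher, beside 16.3%. Without the block 1 of the 23 was called, IL1B.

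IL1B, the precursor of interleukin-1 beta, read 7664 and 4848 with scramble and 2281 and 1619.9 with PRMT5 shRNA (log2 -1.66 ± 0.10, SE; adjusted p = 1.40e-05; 0.0390 without the block). CXCL8, which attracts neutrophils, read 14347 and 7118 against 4906 and 2594 (-1.50 ± 0.17, SE; adjusted p = 1.35e-03; 0.275 without the block). Here pair 1 was the brighter one in both groups, opposite to the hypoxia targets. CCL4, a chemokine for monocytes and T cells, read 6093 and 4569.5 against 2305 and 1032 (-1.77 ± 0.30, SE; adjusted p = 0.0159). CD83, a surface marker of activated antigen-presenting cells, read 3464 and 1694 against 1239.7 and 906 (-1.19; adjusted p = 4.64e-03). TNFAIP3, the feedback inhibitor of NF-kB, read 6810.5 and 8318 against 4289 and 4381 (-0.79; adjusted p = 0.0128). For all of these genes every PRMT5 shRNA array was below every scramble array. CCL5 was the sixth (-1.67; adjusted p = 0.0290), named to complete the count. The NF-kB subunit NFKB1 was at -0.10 and not called.

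Other chemokines and cytokines stood among the largest falls of all genes. CCL20, which attracts CCR6-bearing lymphocytes, read 399.9 and 159 with scramble and 12.2 and 3.85 with PRMT5 shRNA. Both latter signals lie far below the filter minimum of 60, so the added 10 sets the size of its difference (-3.91 ± 0.71, SE; adjusted p = 0.0217). CCL19, a ligand of CCR7, read 408 and 241 against 46.4 and 64.3 (-2.32 ± 0.46, SE; adjusted p = 0.0315). EBI3, a subunit of interleukin-27 and interleukin-35, read 1031 and 646 against 229 and 69.1 (-2.59 ± 0.43, SE; adjusted p = 0.0127). None of the 3 passed without the block. CXCL13, which attracts B cells, read 17208 and 11658 against 5308 and 2404 (-1.98 ± 0.23, SE; adjusted p = 1.35e-03), and 1.15 to 5.86 on the CEP701 and DMSO arrays. It lies outside the rule for named genes and was chosen after its values were seen.

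RGS1, which shortens signalling through chemokine receptors, had the largest fall after CCL20 among the 12 named for size. Its signal was 4463 and 4715 with scramble and 361 and 579 with PRMT5 shRNA, a 9.84-fold fall (log2 -3.30 ± 0.23, SE; adjusted p = 4.71e-05; 4.41e-03 without the block). SPP1, the secreted phosphoprotein osteopontin, read 9335 and 9964 against 1417 and 2029 (-2.50 ± 0.22, SE; adjusted p = 1.78e-04; 0.0103 without the block). HAMP, the iron hormone hepcidin, read 1988 and 2369 against 298 and 347 (-2.72 ± 0.26, SE; adjusted p = 3.72e-04; 0.0102 without the block). Of the 18 haem synthesis and iron genes measured, HAMP alone was called, beside 1.93% of all genes, and the list's median was 0.08. FGF11, an intracellular member of the fibroblast growth factor family, read 516 and 741 against 57.5 and 104 (-2.84 ± 0.28, SE; adjusted p = 4.85e-04; 0.0161 without the block). In all 4 genes every PRMT5 shRNA array lay below every scramble array, which the rule for the 12 named for size required.

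PTPRB, a receptor phosphatase of endothelial cells, read 491 and 1281 with scramble and 32.2 and 183 with PRMT5 shRNA (-3.16 ± 0.36, SE; adjusted p = 1.31e-03). SLC6A8, the creatine transporter, read 1020.0 and 2477 against 201 and 186 (-2.98 ± 0.46, SE; adjusted p = 8.36e-03). For SLC6A8 the fall was 4.89-fold in pair 1 and 12.7-fold in pair 2, mostly because its scramble signals differed. EPOP, a cofactor of Polycomb repressive complex 2, read 212 and 123 against 46.9 and 6.44 (-2.49 ± 0.39, SE; adjusted p = 9.57e-03). Both EPOP signals with PRMT5 shRNA lie below the filter minimum, and the size of its difference depends on the added 10. None of the 3 passed without the block (adjusted p = 0.0712 to 0.194).

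**Figure D4:**
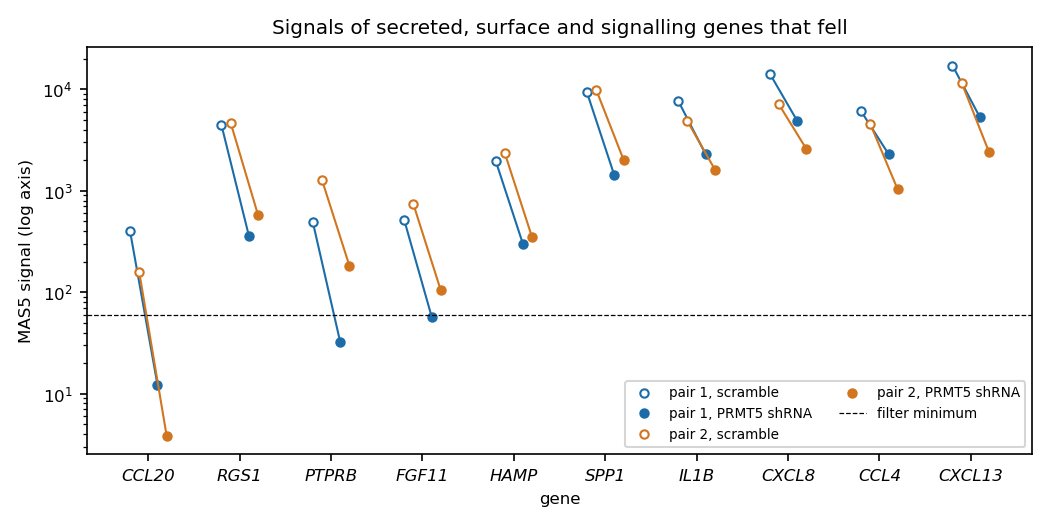
MAS5 signal (log axis) of 10 secreted, surface or signalling genes that fell, on each of the 4 arrays, open circles for scramble and filled circles for PRMT5 shRNA, with a line joining the arrays of a pair and a dashed line at the filter minimum of 60. Every line falls, CCL20 ends below the minimum in both pairs and PTPRB and FGF11 in pair 1.

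A few myeloid transcripts fell as well. Of 21 measured monocyte and granulocyte genes, ITGAM, CTSG and AZU1 fell and none rose, beside 1.58% falls among all genes, with a median log2 difference of -0.29 (-0.47 in pair 1 and -0.14 in pair 2). ITGAM, an integrin of myeloid cells, read 733 and 1579 with scramble and 410.1 and 557 with PRMT5 shRNA (-1.15 ± 0.22, SE; adjusted p = 0.0290). The granule proteins CTSG and AZU1 fell by 1.09 and 1.41 (adjusted p = 0.0323 and 0.0448), and both fell more in pair 1 than in pair 2. The summed signal of the list was 109039 and 128004 with scramble against 80269 and 125138, so the groups overlapped in the sum. The markers CD14, at -0.02, and MPO, at -0.39, were not called. CD14 was lower with PRMT5 shRNA in pair 1 and higher in pair 2, so its difference near 0 averages opposite changes. Another myeloid marker, ELANE, read 8459.9 and 11642.5 with scramble and 2243.9 and 6951.5 with PRMT5 shRNA. Its groups did not overlap, and like CTSG and AZU1 it fell more in pair 1. No group was without these markers, and fewer such cells or less RNA in each cannot be told apart in bulk samples. None of 8 measured lymphocyte genes was called, with CD3G and CD8A at 2.64 to 8.58 on the 4 arrays, near background. IL7R, a cytokine receptor, was at -0.996 (adjusted p = 0.0517), and NKG7, of cytotoxic granules, at -0.60 (adjusted p = 0.107). The summed lymphocyte signal was 6435 and 8264 with scramble and 4296 and 5934 with PRMT5 shRNA. None of 9 fibroblast and epithelial genes was called. The epithelial adhesion gene EPCAM read 2660.4 and 2753 in pair 1 and 980.4 and 484 in pair 2, scramble first, so it followed the pair more than the shRNA.

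Erythroid and platelet genes, the lineages of HEL, mostly did not pass the test. None of 19 transcription factors of these lineages was called, with the haematopoietic regulators GATA2 at -0.37 and ETV6 at -0.22 (adjusted p = 0.109 and 0.376). None of 25 platelet and megakaryocyte genes was called (median -0.33), although 18 were lower in both pairs, beside 30.2% of all genes. GP1BA, the platelet receptor for von Willebrand factor, was at -0.67 and ITGA2B, the platelet fibrinogen receptor's alpha chain, at -0.41 (adjusted p = 0.0537 and 0.0803). Among 6 globin and globin chaperone genes none was called. The list's median differed in sign between pairs, at 0.17 in pair 1 and -0.41 in pair 2, with 3 genes higher and 2 lower in both. AHSP, the chaperone of alpha globin, read 3069 and 1185 with scramble and 6136 and 1263 with PRMT5 shRNA. Embryonic globin HBE1 read 786 and 543 against 772 and 298. EPB42, a protein of the red cell membrane, was called higher, at 385 and 159 against 579 and 313 (0.75; adjusted p = 0.0302), with groups that overlapped.

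In signalling lists few members passed, beside 1.58% falls and 0.347% rises among all genes. Of 16 JAK-STAT targets, PIM1, a survival kinase, and SOCS3, which JAK signalling induces and which then blocks it, fell. PIM1 read 4152 and 4812 with scramble and 2515 and 3222 with PRMT5 shRNA (-0.65; adjusted p = 0.0118), and SOCS3 read 2019.8 and 3929 against 1102 and 2177 (-0.86; adjusted p = 0.0290). SOCS3 overlapped between groups because pair 2 was brighter throughout. None of 17 immediate early genes was called, though 16 were lower in both pairs, beside 30.2% of all genes (median -0.38). In 10 the groups did not overlap with scramble higher, beside 16.3% of all genes, and 1 gene was over 2-fold lower in both pairs. The lowest log2 difference was -2.38. By unadjusted p the first were IER2 at -0.58 and JUN, a subunit of AP-1, at -0.61 (adjusted p = 0.0547 and 0.0906). Of 14 ERK targets MYC rose and none fell (median -0.38). Among 22 measured members of the list of FOXO and PI3K-repressed genes, 2 fell. TXNIP, which limits glucose uptake, fell by 0.62 and TRIB1, a pseudokinase, by 0.61 (adjusted p = 9.57e-03 and 0.0171). None of these calls was kept without the block.

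Survival and stress lists were mixed. Their counts stand beside 1.58% falls and 0.347% rises among all genes. Of 15 BCL2 family genes 3 fell: BNIP3 and BNIP3L, described above, and BCL2A1, an anti-apoptotic NF-kB target, which read 4392 and 3546 with scramble and 1918 and 2166 with PRMT5 shRNA (-0.95; adjusted p = 0.0255). MCL1, BCL2L1 and BAX were at -0.13, -0.10 and -0.05 and not called. Of 20 p53 targets ZMAT3, an RNA-binding protein, fell by 0.54 (adjusted p = 0.0297), although 1 dim probe set of ZMAT3 was higher in both pairs. In the list of 30 targets of ATF4 or the unfolded protein response, the lipoprotein receptor VLDLR fell and none rose (median 0.05). Of 10 histone genes H1-2, a linker histone, fell by 0.78 (adjusted p = 0.0358).

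Rises were fewer and smaller. FUCA1, a lysosomal fucosidase, had the lowest adjusted p among them. It read 1794 and 1915 with scramble and 3951 and 6606 with PRMT5 shRNA, a rise of 1.46 ± 0.15 (SE; adjusted p = 6.17e-04; 0.0535 without the block). SLC30A1, a zinc exporter, read 737 and 569.6 against 1469.6 and 1712 (1.28 ± 0.26, SE; adjusted p = 0.0323). ADAM9, a membrane metalloprotease, read 2568 and 1903 against 4144 and 5295 (1.08 ± 0.17, SE; adjusted p = 8.94e-03). In these 3 genes the rise was larger in pair 2. Their groups did not overlap, which the rule for the largest rises required. MRAP2, an accessory protein of melanocortin receptors, read 6.83 and 56.5 with scramble, both below the filter minimum, and 79.1 and 289 with PRMT5 shRNA (2.29 ± 0.33, SE; adjusted p = 5.61e-03). The added 10 therefore sets the size of its rise. TSPAN15, a tetraspanin that guides the protease ADAM10, was the gene called higher without the block (adjusted p = 0.0390), from 14.6 and 14.03 to 105 and 162. Its scramble signals lie far below the filter minimum, so it passed the filter through the PRMT5 shRNA arrays and the added 10 sets the size of its rise. It was named for that count after its values were seen, as were EPN1 and OXER1, which with FUCA1, MRAP2 and TSPAN15 were the 5 called genes over 2-fold higher in both pairs.

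The remaining rises among the largest 12 were ACP3, SS18, SLC38A6, HSD17B10, TWF1, NAA50, NQO1 and CPEB4, at 0.997 to 0.73 on the log2 scale (adjusted p = 6.69e-03 to 0.0399). SS18, a subunit of the BAF chromatin remodelling complex, read 537 and 599.5 with scramble and 982 and 1247 with PRMT5 shRNA. HSD17B10, a mitochondrial dehydrogenase that is also part of RNase P, read 2075 and 1856 against 4133 and 2944. NAA50, an N-terminal acetyltransferase, read 8515 and 4792 against 11190.1 and 11142. All 8 had groups that did not overlap, which the rule for the largest 12 required. None of the 8 passed without the block (adjusted p = 0.129 to 0.668).

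NRF2 targets, which protect against oxidants, had the highest share of rises among the lists. Of 15 measured 3 rose and none fell (beside 0.347% of all genes), with a median log2 difference of 0.27, which was 0.14 in pair 1 and 0.50 in pair 2. TXNRD1, a thioredoxin reductase, read 4904 and 4503 with scramble and 7412 and 7362 with PRMT5 shRNA (0.65 ± 0.10, SE; adjusted p = 8.71e-03). NQO1, a quinone reductase, read 1502 and 903 against 2256 and 1817 (0.79 ± 0.15, SE; adjusted p = 0.0289), and GCLC, of glutathione synthesis, rose by 0.62 (adjusted p = 0.0358). HMOX1, which NRF2 and hypoxia both induce, was at 0.21 and not called.

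Of 36 G2/M and mitosis genes 2 rose and none fell (median 0.25), and 29 were higher in both pairs, beside 30.2% of all genes. For this list and those below, 0.347% of all genes rose and 1.58% fell. CDC20, an activator of the anaphase-promoting complex, read 1869 and 1132 with scramble and 2961 and 1925 with PRMT5 shRNA (0.71 ± 0.11, SE; adjusted p = 9.95e-03), and CCNB1, the mitotic cyclin, rose by 0.49 (adjusted p = 0.0265). Of 12 heat shock genes HSPH1 and DNAJA1 rose, by 0.49 and 0.48. In the MYC network and ribosome synthesis list of 32, MYC and GAR1, a protein of box H/ACA snoRNPs, each rose by 0.53 and MXI1 fell. MYC read 5852 and 3099 against 9096 and 4146, so its pairs differed more than its groups, as for CCNB1, HSPH1 and GAR1. Of 20 autophagy and lysosome genes CTSZ, a cathepsin, rose by 0.55 (adjusted p = 0.0439). None of these rises passed without the block.

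The RNA-processing machinery that PRMT5 methylates was not called at the transcript level. None of 21 Sm and LSm genes passed (median 0.09), with SNRPC, a U1 protein, at -0.47 and SNRPG, a core Sm protein, at 0.33 (adjusted p = 0.0798 and 0.118). None of 8 SMN complex, 24 SR protein and hnRNP or 25 core spliceosome genes passed either. In these 4 lists, in the order given, 13, 5, 17 and 9 genes were higher in both pairs. Lower in both pairs were 3, 1, 0 and 3, beside 30.2% of all genes each way. A gene that missed the threshold is not shown to be unaltered. Splicing itself cannot be read from these 3' probe sets. Also without a call were the 9 genes described as repressed through PRMT5, 41 G1/S genes, 8 CDK inhibitors and pocket proteins, 26 proteasome, 21 ribosomal protein, 18 sterol synthesis, 8 fatty acid synthesis, 30 interferon-stimulated, 9 stem and progenitor, and 5 arginine demethylation and methyl reader genes. Of the 26 proteasome genes 20 were higher and 1 lower in both pairs. The interferon list's pair medians differed in sign (-0.03 and 0.26). So did those of the sterol (-0.08 and 0.09), CDK inhibitor (-0.10 and 0.04), ribosomal protein (0.02 and -0.07) and core spliceosome (0.19 and -0.07) lists.

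**Figure D5:**
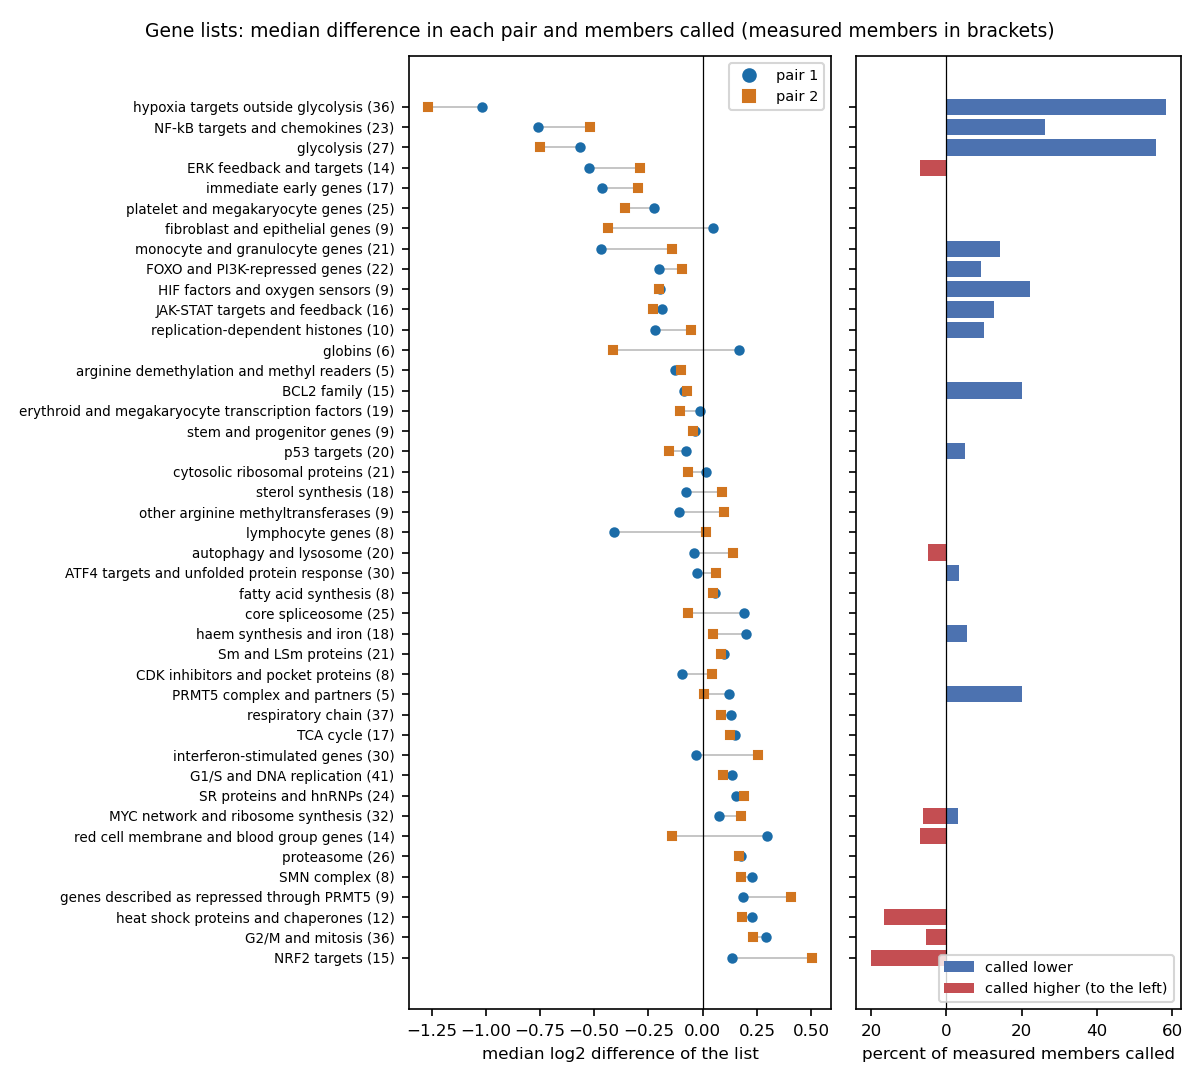
Left, median log2 difference (PRMT5 shRNA minus scramble) of 43 gene lists in pair 1 (circles) and pair 2 (squares); right, percent of measured members called lower (bars to the right) or higher (bars to the left). Hypoxia targets, glycolysis and NF-kB targets have the lowest medians and the most falls, and NRF2 targets have the highest share of rises.

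Where a called gene had further probe sets, these mostly moved the same way. For 123 called genes there were 208 other probe sets past the filter, of which 172 had the direction of the call in both pairs and 8 the opposite direction in both. The 8 belong to BCL6B, CPEB4, HK2, RHOC, TXNDC9, VAMP4, ZMAT3 and ZMYM6.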

How the data were processed

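Expression was measured on 8 Affymetrix arrays of HEL cells in 4 groups of 2. Per the labels, biotin-labelled cRNA was made from 200 ng of total RNA with a kit that primes at 3' ends. The authors deposited linear signal intensity from MAS5, run in Affymetrix Expression Console per the submitters' processing notes, where versions are not given. A trimmed mean of 500 was found on every array.

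Signals were used as deposited; 10 was added and log2 taken. Genes were kept where the signal exceeded 60 on at least 2 of the 4 shRNA and scramble arrays, which for 1092 of 12987 genes came from both arrays of 1 group alone (23 of these were called). Each gene was represented by its single-gene probe set with the highest mean over the 4 arrays; symbols were updated through Entrez identifiers. All 8 arrays were fitted with limma 3.58.1 (lmFit, then eBayes with its trend option), run in R (4.3.3) using data.table (1.17.8), with 4 groups and the pair as a block in the shRNA arm. The pairing comes from the shared title suffix, and after subtracting group means, arrays of a pair deviated together across genes (r = 0.424). The fit had 3 residual and 7.69 prior degrees of freedom. The 4 shRNA arm arrays alone, with the block, left 1 residual degree of freedom. The calculation was tested on simulated data. Adjusted p-values are Benjamini-Hochberg values over all genes tested.

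The comparison, the 43 gene lists and the naming rule were set with earlier results of these data known. The rule takes PRMT5, the 12 largest changes each way among called genes whose groups do not overlap and that reach a signal of 200, up to 5 members by unadjusted p of lists with 3 or more calls, called members of the other lists, and up to 2 members of other lists described. Other genes named, such as list members near 0, were chosen after their values were seen. Alternatives changed the block, the arrays fitted, the pseudocount, the filter, the scaling, the probe set rule, the trend and the replicates.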

Additional observations from a re-analysis of the deposited data

How the results depend on the processing

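The main counts were 45 rises and 205 falls. They were 1 and 20 with no replicate block, 181 and 482 with the 4 shRNA arm arrays alone and the block, and 0 and 0 with those 4 alone and no block, where limma gave 531 genes an unadjusted p under 0.05. They were 20 and 127 without a filter, 12 and 95 with scaling to the poly-A controls, 29 and 133 without _x_at and _s_at probe sets, and 6 and 29 without the trend. Rises alone moved beyond 1.5 times with a pseudocount of 50 (68) and with quantile normalization (77). Leaving out replicates gave 0 to 29 rises and 3 to 175 falls. Without replicate 1 there were 20 and 74, without replicate 2 there were 2 and 30. Of the 250 calls, 69 were kept without replicate 1 and 31 without replicate 2, and all 250 kept their direction in both. The numbers over 2-fold in both pairs, 45 higher and 132 lower, were 11 and 84 with a pseudocount of 50, 212 and 271 without a filter, 6 and 72 with signals above 60 on all 4 arrays, and 27 higher with a mean above 60. They were 179 and 450 at 1.5-fold and 5 and 17 at 4-fold.

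Hypoxia targets outside glycolysis had 0 (4 arrays, no block) to 26 members called, with a median of -1.36 to -0.87 over all alternatives. Without the block, leaving out 1 more array turned the sign of single named genes. The range was -0.038 (without scramble replicate 2) to 0.78 for PRMT3, -0.10 (without scramble replicate 2) to 1.16 for GAR1, which was also -0.032 without PRMT5 shRNA replicate 1, and -0.039 (without PRMT5 shRNA replicate 1) to 1.09 for MYC. It was -0.59 (without PRMT5 shRNA replicate 1) to 1.68 for AHSP, which was also -0.14 without scramble replicate 2, and -1.11 to 0.24 (without PRMT5 shRNA replicate 2) for HBE1. The cause of these changes was not tested. Leaving out arrays also leaves fewer to estimate the spread, and array number and signal near background limit what could be called.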
